A study of Mus musculus with 8 samples.

Results

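Ifitm1, Ifitm2 and Ifitm3 encode interferon-induced transmembrane proteins, and their RNA was followed through neutrophil maturation and across tissues of tumor-bearing mice. The 3 genes were taken by name from 32285 genes in the count table. Their unique molecular identifiers (UMIs, counts of captured RNA molecules) were compared between cell classes set by a few RNAs. Kit-positive cells had at least 1 UMI of Kit. Immature neutrophils had at least 1% of their UMIs in Camp, Ngp and Ltf, genes of neutrophil granule proteins. Mature neutrophils had at least 3% (1% in tumor) in S100a8 and S100a9 and were not immature. Monocytes had at least 2 UMIs of Ly6c2 and 1 of Csf1r. No Ifitm gene took part in these rules. Of 20012 cells, 1431 were Kit-positive, 1763 immature neutrophils, 10681 mature neutrophils and 1851 monocytes. The 1233 cells that met several rules and the 3053 that met none entered no class.

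The cells came from female C57BL6/J mice that all carried a subcutaneous MOPC tumor, a mouse oropharyngeal carcinoma line grown in the flank. Tumor, blood, spleen and bone marrow each gave 1 droplet library, with 10 hashtag antibodies and 18 surface antibodies counted in the same cells. Each tissue held wild-type mice and mice of a genotype that the labels call Genotype_02, a gene knockout whose gene they do not name, so the targeted gene could not be checked. The sort kept Gr1-positive cells without lymphoid, mast cell and red cell markers, and Gr1-negative cKit-positive cells, after cell numbers were evened out between conditions. Tumors, unlike the other tissues, were digested with enzymes for 45 min at 37 °C. Hashtags 1 to 8 were in use. Per the labels, a hashtag marks an animal, its organ and its condition, but which one marks which is not given. A hashtag in a given tissue was counted as 1 animal on that basis, and hashtags 1-4 and 5-8 were compared as 2 sets of hashtags, not as genotypes.

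IFITM proteins sit in the plasma membrane and in endosomes, where they hinder viruses from fusing with the cell. In mice their genes lie in a cluster on chromosome 7, and type I and type II interferons raise the RNA of several of them. Neutrophils arise in marrow from Kit-positive progenitors, load their granules while immature, and leave for the blood once mature. Interferons act through the receptors encoded by Ifnar1 and Ifnar2 (type I) or Ifngr1 and Ifngr2 (type II).

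The promoter windows are shown as sequence context, and their part in the results below was not tested. RefSeq's GRCm38.p6 table gives 300 bases, 250 before to 50 after a listed start. Capitals mark the letters GAAANNGAAA, a core of the interferon-stimulated response element, searched on both strands. The windows lie at chr7:140967826-140968125 on the plus strand for Ifitm1, at chr7:140955912-140956211 on the minus strand for Ifitm2 and at chr7:141010695-141010994 on the minus strand for Ifitm3. The listed starts of Ifitm1 and Ifitm2 lie inside their annotated gene spans.
Ifitm1: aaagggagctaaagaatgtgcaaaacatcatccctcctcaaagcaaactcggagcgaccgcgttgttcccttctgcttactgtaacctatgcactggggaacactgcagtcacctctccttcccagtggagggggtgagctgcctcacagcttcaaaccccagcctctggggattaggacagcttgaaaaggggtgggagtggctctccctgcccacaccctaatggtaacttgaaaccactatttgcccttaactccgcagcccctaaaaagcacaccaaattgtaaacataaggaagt
Ifitm2: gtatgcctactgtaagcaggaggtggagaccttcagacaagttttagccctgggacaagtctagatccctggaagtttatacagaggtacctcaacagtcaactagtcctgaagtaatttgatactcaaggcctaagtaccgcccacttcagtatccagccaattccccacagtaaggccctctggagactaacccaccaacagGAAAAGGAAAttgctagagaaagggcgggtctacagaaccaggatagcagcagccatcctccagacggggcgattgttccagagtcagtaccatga
Ifitm3: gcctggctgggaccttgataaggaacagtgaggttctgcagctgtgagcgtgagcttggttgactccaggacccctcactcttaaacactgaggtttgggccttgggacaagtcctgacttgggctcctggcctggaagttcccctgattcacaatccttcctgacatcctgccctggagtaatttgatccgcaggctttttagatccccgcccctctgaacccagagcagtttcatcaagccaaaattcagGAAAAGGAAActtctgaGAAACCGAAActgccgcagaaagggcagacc

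The Ifitm1 window held no such letters, that of Ifitm2 held them once from base 205 of the window, and that of Ifitm3 held them from bases 253 and 270. The Ifitm2 match begins before its listed start and both Ifitm3 matches begin after theirs. Of 32851 promoter windows of this length, 3.44% held the letters at least once and 0.225% at least 2 times. TTCNNNGAA, a core bound by STAT proteins, stood in 8.30% of windows and in that of Ifitm3 from base 264, where it overlaps the second capital run. These matches describe letters in 1 window per gene and no binding was measured.

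The class names were checked against marker RNAs and surface antibodies. Levels are in CPM (UMIs of a gene scaled to 1e+06 UMIs in all). Each level is from the summed cells of a class that carried the same hashtag in a tissue, 20 cells or more (5 or more in tumor). The 6 mature neutrophil markers (Cxcr2, Csf3r, Retnlg, Mmp9, Mmp8 and Il1b) summed to 12368 to 23756 CPM in mature neutrophils of tumor, 16981 to 22312 in blood, 17862 to 23181 in spleen and 43040.4 to 52172 in marrow. In tumor that sum was mostly Il1b, a cytokine gene that macrophages also use, at 15097 CPM over all cells of the class, against 2223 in blood. Retnlg stood at 681 CPM in the tumor class, against 10091 in blood, and Mmp8 at 65.4 CPM, against 525. Csf3r stood at 1025 CPM in the tumor class, against 3532 in blood, and Cxcr2 at 746 CPM, against 1536, so the tumor cells are mature neutrophils mainly by their rule. The 6 immature markers, 1 of them the class gene Ltf, summed to 32768 to 35812 CPM in immature cells of spleen and 29284 to 33980.3 in marrow. The median Ly6C antibody count was 449.5 in blood monocytes, 301.5 in spleen monocytes and 307 in marrow monocytes, against 39, 30 and 40 in mature neutrophils of the same tissues. Spleen Kit-positive cells differed from those of marrow in their markers: their 6 progenitor markers summed to 333 CPM, against 3723 in marrow, while 4 dendritic cell markers summed to 3062 CPM, against 134 in marrow, with H2-Ab1 alone at 2889 CPM in spleen. Gata1 and Klf1, genes of red cell and platelet progenitors, stood at 53.9 and 72.0 CPM in spleen, against 54.5 and 60.4 in marrow, and 234 of the 789 spleen cells held 1 of these genes or both. They are called spleen Kit-positive cells for their rule alone.

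Tumor gave 7163843 UMIs from 462 cells, blood 34232732 from 7763, spleen 50111292 from 6105 and marrow 64092351 from 5682. A single hashtag was assigned to 47.0% of tumor cells and 89.7% of all cells. Of 19981 distinct barcodes, 31 occurred in 2 or more libraries. A tissue cannot be told apart from its single library. Spread between hashtags is all that the p-values measure. Tests are edgeR's quasi-likelihood tests on the sums with Benjamini-Hochberg adjustment over all genes tested, every adjusted p (q) below is from them unless said otherwise, and a gene is called under 0.05. Fold changes are log2 values ± standard error.

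Ifitm1 RNA was low in marrow immature neutrophils, below both mature neutrophils and the mixed class of Kit-positive cells. In marrow, its lowest, median and highest levels over 8 hashtags were 189, 275 and 428 CPM in Kit-positive cells, 2.23, 14.5 and 31.6 CPM in immature neutrophils and 505, 790.2 and 1105 CPM in mature neutrophils. No immature sum reached the range of mature neutrophils or of the Kit-positive class as a whole. The Kit-positive cells with granulocyte progenitor RNA, described further on, held 18.3 to 181 CPM, which overlaps the immature range. An Ifitm1 UMI was found in 66.8% of Kit-positive cells, 12.6% of immature neutrophils and 48.5% of mature neutrophils, whose median UMIs per cell were 19644, 9099 and 3637. Shares cover all cells of a class, also those without a single hashtag, whereas levels cover the hashtag sums; over all cells Ifitm1 stood at 28.9 CPM in marrow immature neutrophils. With every cell thinned to 1000 UMIs, which left out 328 shallower cells of the series, the shares in the same order were 23.8%, 3.12% and 31.2%. Intervals on shares and floors cover counting error only.

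Mature neutrophils outside marrow held more Ifitm1 RNA than those in it. The 4 tumor sums stood at 1960.4, 1816, 2799.6 and 2274 CPM. The lowest, median and highest blood sums were 1102, 1557 and 2542 CPM, and those of spleen 1026, 1637 and 2728 CPM. Marrow's highest of 1105 CPM was just above the lowest values of blood and spleen, so these groups met only at their edges. By mean ± SD the order was tumor (2212 ± 436, n = 4), spleen (1692 ± 488), blood (1618 ± 436) and marrow (785 ± 221, n = 8 each). Tumor, spleen and blood could not be ordered, because each range overlapped the next. Below mature neutrophils came Kit-positive cells of marrow (304 ± 84.4) and spleen (174 ± 87.1), and then, with overlapping ranges, monocytes of spleen (45.5 ± 38.2), blood (25.1 ± 12.6) and marrow (21.0 ± 9.13) and immature neutrophils of spleen (24.1 ± 30.5, n = 5) and marrow (15.3 ± 9.34).

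The lowest of these levels are near those of globin-filled blood cells. Whether these cells lack the gene was not tested, and at least 50% of their UMIs are globin RNA by rule. They are also from the blood library alone. The 213 globin-filled blood cells, red cell precursors or remnants by their RNA, held 15.5 CPM of Ifitm1, with a UMI in 3.29% of cells (exact 95% interval 1.33 to 6.65) at a median of 6566 UMIs. Blood mature neutrophils held a UMI in 67.3% of cells at a median of 3034 UMIs. The Ifitm1 sums of blood monocytes (9.88 to 47.5 CPM) and of marrow immature neutrophils spanned the level of the globin-filled cells and are read as near background. Ifitm2 and Ifitm3 stood at 79.7 and 28.6 CPM in the globin-filled cells, below every sum of the 4 classes for both genes.

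Ifitm2 RNA was present at every stage and highest in mature neutrophils outside marrow. In marrow its lowest, median and highest levels were 519, 558 and 615 CPM in Kit-positive cells, 398, 447 and 479.8 CPM in immature neutrophils and 1241, 1529 and 1912 CPM in mature neutrophils. The 3 stages did not overlap, and the immature stage was the lowest. The 4 tumor sums of mature neutrophils were 2203, 2779, 3266 and 2005 CPM. In blood the lowest, median and highest were 2286, 2745 and 3457 CPM, and in spleen 2224, 2632 and 3276 CPM. All sums of these 3 tissues were above all 8 sums of marrow. Means followed the order blood (2765 ± 380.3), spleen (2704 ± 343), tumor (2563 ± 572, n = 4), blood monocytes (1769 ± 223), marrow mature neutrophils (1536 ± 236), spleen monocytes (1443 ± 227), marrow monocytes (851 ± 90.8), marrow Kit-positive cells (562 ± 29.8), marrow immature neutrophils (440.4 ± 31.2), spleen Kit-positive cells (414 ± 69.3) and spleen immature neutrophils (334 ± 54.7, n = 5). Ranges separated only between spleen and marrow monocytes, between marrow monocytes and marrow Kit-positive cells, and between marrow Kit-positive cells and marrow immature neutrophils; all other neighbours overlapped.

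Ifitm3 RNA was highest in monocytes, and along the neutrophil pathway it was low only in Kit-positive cells. In marrow its lowest, median and highest levels were 141, 204 and 361 CPM in Kit-positive cells, 521, 696 and 923 CPM in immature neutrophils, and 573, 854 and 1176 CPM in mature neutrophils. Kit-positive cells lay below both neutrophil stages, whose ranges overlapped. Monocytes held 2756, 4314 and 6118 CPM in blood, 2312, 2913 and 4401 CPM in spleen and 1153, 1554 and 2561 CPM in marrow, as lowest, median and highest. Tumor mature neutrophils, at 1273, 1206, 2799.6 and 824 CPM, came next, followed by mature neutrophils of marrow (853 ± 240.0), blood (762 ± 305) and spleen (698 ± 295). Every neighbour in the order of the 11 groups overlapped for Ifitm3. The wide spread within groups followed the 2 hashtag sets described further on.

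**Figure D1:**
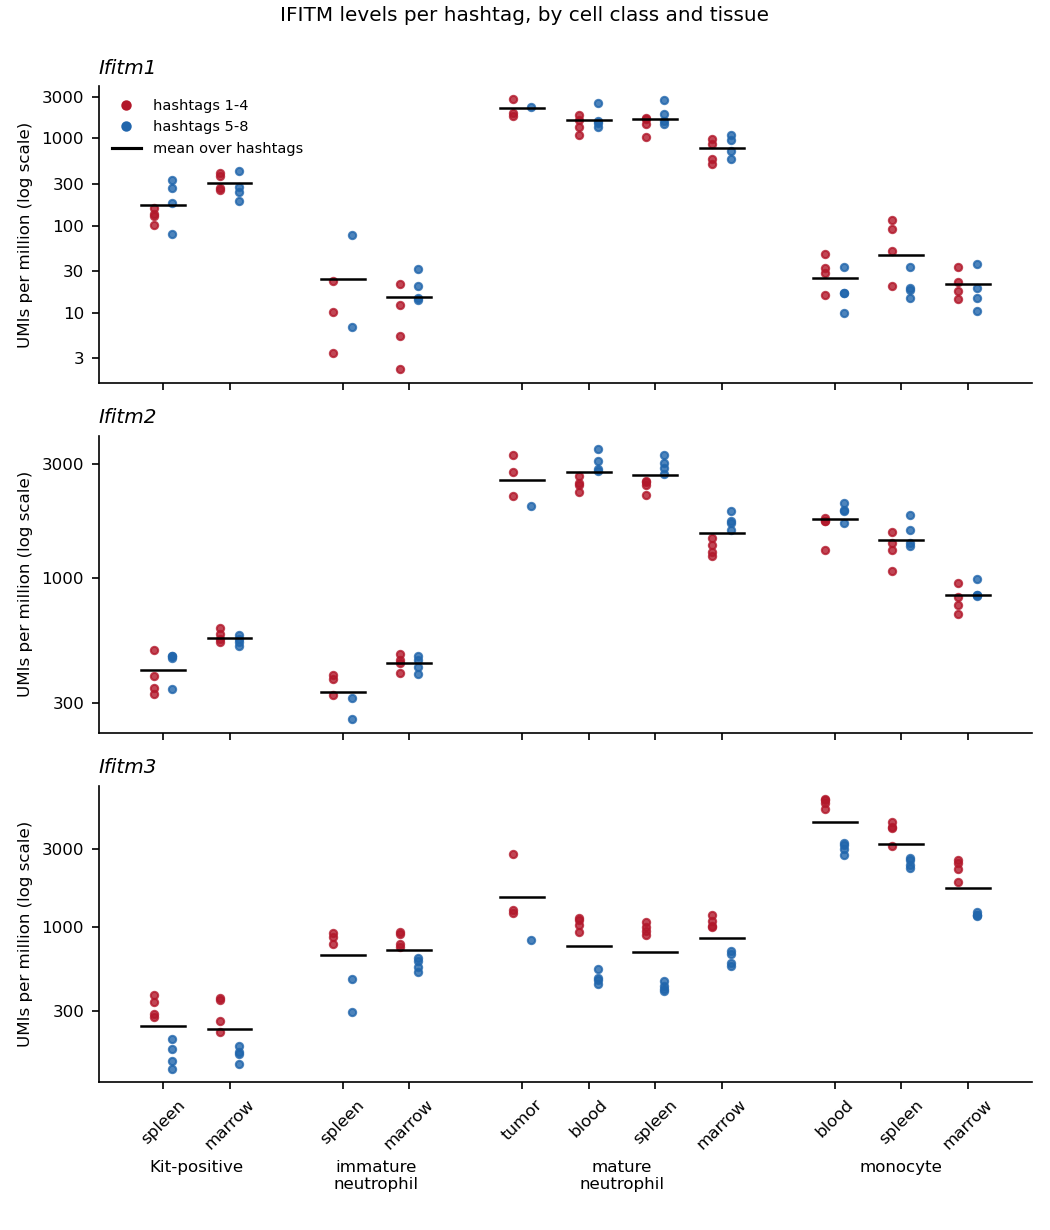
Ifitm1, Ifitm2 and Ifitm3 levels (CPM, log axis) in Kit-positive cells, immature neutrophils, mature neutrophils and monocytes of each tissue. A point is the summed cells of 1 hashtag (red, hashtags 1-4; blue, hashtags 5-8) and a bar the mean. Ifitm1 drops to 2.23 to 31.6 CPM in marrow immature neutrophils, Ifitm2 peaks in mature neutrophils outside marrow, and Ifitm3 is highest in blood monocytes, with red points above blue ones.

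The fall of granule RNA gave a finer scale of maturation in marrow. Immature and mature neutrophils were split into 5 bins by the share of their UMIs in Camp, Ngp and Ltf, which sank as cells matured (at least 10%, 3 to 10%, 1 to 3%, 0.1 to 1% and under 0.1%). The bins held 7, 8, 4, 8 and 8 hashtags, with only hashtags 3, 5, 6 and 8 at 1 to 3%, so their means do not cover the same hashtags. Mean Ifitm1 levels over hashtags were 6.85, 13.6, 61.0, 403 and 1153 CPM in that order. Mean Ifitm2 levels were 367, 441, 782, 1251 and 1803 CPM. For both genes the mean of each bin exceeded that of the bin before. Of the hashtags with both bins, the later bin was higher in 6 of 7, 4 of 4, 4 of 4 and 8 of 8 for Ifitm1, and in the same numbers for Ifitm2. Ifitm3 means were 561, 758, 859.7, 894 and 813 CPM, with the later bin higher in 7 of 7, 4 of 4, 1 of 4 and 2 of 8 hashtags. In hashtags 3, 5, 6 and 8 Ifitm3 stood at 1199, 851, 657 and 732 CPM at 1 to 3%. At 0.1 to 1% the same hashtags held 1268, 770, 630 and 637 CPM, so the higher mean there reflects the hashtags averaged. The Ifitm3 steps were thus upward at the immature end and mostly downward at the mature end. Dividing by UMIs without Camp, Ngp, Ltf, S100a8 and S100a9 gave the same step counts for Ifitm1, and for Ifitm2 but for the first step, which was upward in 5 of 7. With that divisor Ifitm3 went up in 6 of 7 and 3 of 4 hashtags at the first steps and in 0 of 4 and 1 of 8 at the last.

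**Figure D2:**
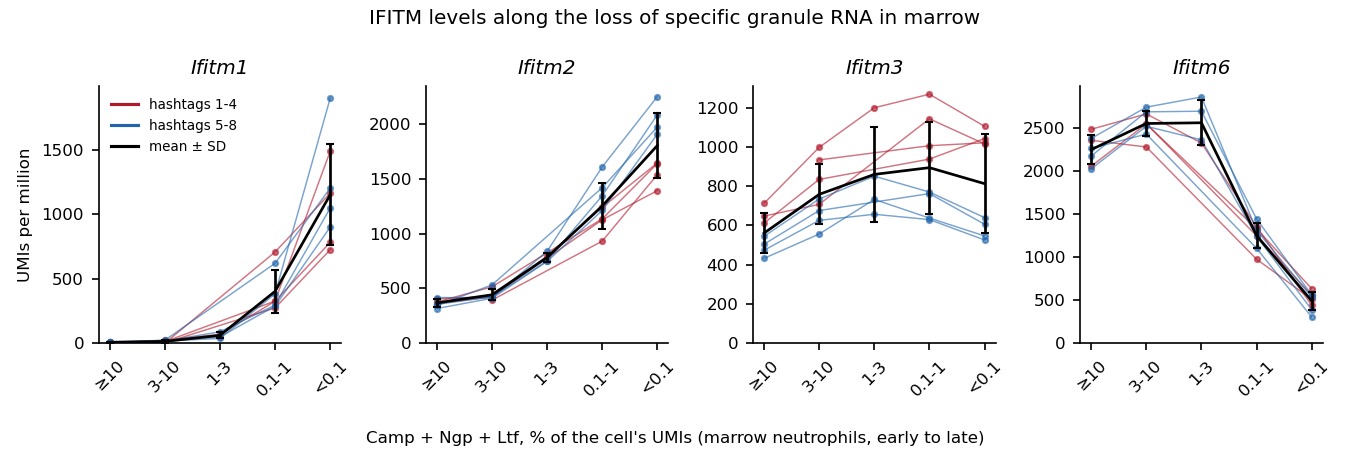
Ifitm1, Ifitm2, Ifitm3 and Ifitm6 levels of marrow neutrophils (CPM, linear axes from 0) against bins of falling granule RNA, with the most immature cells at the left. Thin lines with points are single hashtags (red for 1-4, blue for 5-8) and the black line is the mean ± SD. Ifitm1 and Ifitm2 climb to last-bin means of 1153 and 1803 CPM. Ifitm3 has means of 859.7, 894 and 813 CPM in the last 3 bins, over 4, 8 and 8 hashtags, and Ifitm6 ends at 489.7 CPM.

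The fits gave these steps their errors. Between marrow immature neutrophils and Kit-positive cells, Ifitm1 fell by 4.16 ± 0.23 on the log2 scale (q = 9.19e-21) and Ifitm3 rose by 1.62 ± 0.20 (q = 5.20e-10). Ifitm2 was lower by -0.35 ± 0.08 (q = 5.92e-05), but it was higher with TMM factors (0.46), with DESeq2 (0.15) and with library sizes that left out the genes defining the classes (0.45), so its direction depends on the scaling. The median of all genes in this contrast was -1.13, against -0.33 with TMM factors, and 87.2% of the genes tested were called. Ifitm2 and Ifitm3 lay above that median and Ifitm1 below it.

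From immature to mature marrow neutrophils Ifitm1 rose by 5.52 ± 0.23 (q = 6.18e-24) and Ifitm2 by 1.80 ± 0.08 (q = 3.59e-23), where 59% of genes were called. Ifitm3 differed by 0.26 ± 0.19 and was not called (q = 0.235). The 2 stages share hashtags within 1 library, and with the hashtag as a block Ifitm3 was called at 0.23 ± 0.08 (q = 0.0140). Without the class genes in the library size its difference was -0.07. In spleen, mature neutrophils were higher than immature ones for Ifitm1 by 5.85 ± 0.53 (q = 1.68e-11) and for Ifitm2 by 3.02 ± 0.15 (q = 4.31e-18), and Ifitm3 differed by 0.07 ± 0.28 (q = 0.860), with 54.7% of genes called. The step of Ifitm2 was larger in spleen than in marrow by 1.22 ± 0.14 (interaction q = 1.64e-08; 18.4% of genes called). That of Ifitm1 differed by 0.28 ± 0.52 (q = 0.780) and that of Ifitm3 by -0.19 ± 0.33 (q = 0.760).

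Spleen immature neutrophils were few, with 174 cells and 5 hashtags of 20 to 33 cells. Their Ifitm1 levels were 10.1, 23.3, 3.45, 77.1 and 6.77 CPM. The highest, hashtag 5, came from 43 UMIs in 12.1% of 33 cells. Against marrow immature neutrophils Ifitm2 was lower by -0.40 ± 0.09 (q = 0.0325), in a contrast where 1.07% of genes were called. That call was lost without marrow hashtags 2, 3, 4, 5 or 7 or spleen hashtags 3, 5 or 7, left out singly, with q up to 0.104. Its value stayed between -0.47 and -0.33.

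Mature neutrophils of blood and spleen were compared with those of marrow, their site of origin. Ifitm1 was higher in blood by 1.05 ± 0.17 (q = 4.68e-06) and in spleen by 1.11 ± 0.17 (q = 1.83e-06). Ifitm2 was higher in blood by 0.85 ± 0.10 (q = 1.61e-08) and in spleen by 0.81 ± 0.10 (q = 3.46e-08). In these contrasts 46.1% and 45.5% of genes were called and the median of all genes was 0.29 and 0.35, so both genes rose by more than the median gene. Both contrasts share the marrow sums. Among cells with under 0.1% of UMIs in granule RNA the Ifitm1 gap was smaller and the ranges overlapped, at 1619 ± 436 CPM in blood (1103 to 2542), 1705 ± 495 in spleen (1040.01 to 2762) and 1153 ± 391 in marrow (726 to 1903). Ifitm3 was not called: it differed by -0.16 ± 0.25 in blood (q = 0.631) and by -0.29 ± 0.25 in spleen (q = 0.358).

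The tissue difference of Ifitm3 was also taken within each hashtag set, and its difference between the sets was not called. Within hashtags 5-8 Ifitm3 was lower in blood than in marrow by -0.39 ± 0.10 (q = 0.00336) and lower in spleen than in marrow by -0.58 ± 0.10 (q = 0.000123). Within hashtags 1-4 the values were -0.05 ± 0.14 (q = 0.827) and -0.15 ± 0.14 (q = 0.424). The test of that difference gave 0.35 ± 0.12 for blood (unadjusted p = 0.00781, q = 1.00) and 0.43 ± 0.12 for spleen (unadjusted p = 0.00156, q = 0.806), and edgeR called 0% of genes in both. At unadjusted p under 0.05 those fits held 325 and 353 of the 8260 genes tested, and DESeq2 called 0 as well. With the hashtag number as a block, the spleen difference of Ifitm3 over all hashtags was -0.35 ± 0.09 (q = 0.00104), but it was not called without the block. Whether a number marks the same animal in spleen and marrow is not given. Same-numbered sums of these tissues had correlations of at least 0.317 over all hashtags. Of the 8 spleen sums, 4 correlated best with the marrow sum of their own number. Within the hashtag sets the lowest correlation was -0.136 and the median 0.140, so the blocked call rests on a pairing that was not shown.

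In the tumor, mature neutrophils numbered 119 cells, of which 4 hashtags gave sums of 7, 17, 5 and 17 cells (hashtags 2, 3, 4 and 6). Ifitm3 was higher than in blood mature neutrophils by 0.89 ± 0.33 (q = 0.0337), with 36.9% of genes called. Ifitm1 differed by 0.43 ± 0.22 (q = 0.119) and Ifitm2 by -0.13 ± 0.13 (q = 0.479). The Ifitm3 call rests on few cells: without tumor hashtag 4, the sum of 5 cells, it was 0.51 (q = 0.268), and leaving out tumor hashtags 2 or 3 or any of blood hashtags 5 to 8 also took q above 0.05. Over all 119 tumor cells, with or without a hashtag, Ifitm3 stood at 1072 CPM, against 868 CPM over all 5833 mature neutrophils of blood. The tumor sums hold 3 hashtags of 1-4 and 1 of 5-8, while blood holds 4 of each. Within hashtags 1-4 alone the difference was 0.62 ± 0.18 (q = 0.00866). The 5 macrophage markers (C1qa, C1qb, C1qc, Mrc1 and Apoe) summed to 323 to 1742 CPM in the tumor sums, highest in hashtag 4, against 62.8 to 252 CPM in blood, and the 45 tumor cells that met a macrophage rule held 1089 CPM of Ifitm3. Monocyte markers summed to 744 to 2519.6 CPM in the tumor sums, also highest in hashtag 4, against 38.2 to 117 CPM in blood. Their part in the result was not tested.

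In blood and marrow, monocytes held less Ifitm1 and more Ifitm3 than mature neutrophils of the same tissue. In blood, monocytes were lower than mature neutrophils for Ifitm1 by -5.98 ± 0.23 (q = 6.88e-17) and for Ifitm2 by -0.64 ± 0.09 (q = 5.18e-07), and higher for Ifitm3 by 2.54 ± 0.23 (q = 6.39e-10). In marrow the differences were -5.23 ± 0.23 for Ifitm1 (q = 4.81e-24), -0.85 ± 0.08 for Ifitm2 (q = 1.44e-13) and 1.03 ± 0.19 for Ifitm3 (q = 4.17e-06). The marrow value of Ifitm3 lay below the median of all genes, which was 1.26, and with TMM factors it was 0.33 and not called. These contrasts called 83.7% and 85.1% of genes. As a share of the UMIs of the 7 Ifitm genes, Ifitm3 made up 63.3% ± 9.03 in blood monocytes and 14.7% ± 6.31 in blood mature neutrophils (SD, n = 8 each). Ifitm1 made up 0.361% ± 0.151 in blood monocytes and 30.4% ± 4.85 in blood mature neutrophils.

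Monocytes outside marrow held more Ifitm2 and Ifitm3 than marrow monocytes. Ifitm3 was higher in blood by 1.35 ± 0.20 (q = 1.99e-06) and in spleen by 0.89 ± 0.20 (q = 0.000530). Ifitm2 was higher in blood by 1.06 ± 0.09 (q = 3.06e-11) and in spleen by 0.76 ± 0.09 (q = 2.85e-08). The contrasts called 52.3% and 51.8% of genes. The 6 progenitor markers summed to 1668 to 3023 CPM in marrow monocytes, 213 to 307 CPM in blood and 244 to 748 CPM in spleen. Marrow monocytes thus hold more progenitor RNA, and its part in the result was not tested. As a mean over cells, Ifitm3 stood at 2500 CPM in marrow, 4353 in blood and 3427 in spleen monocytes. Over summed UMIs of all cells, marrow monocytes stood at 1687 CPM. Ifitm1 differed by 0.30 ± 0.40 in blood (q = 0.562) and was higher in spleen by 1.07 ± 0.36 (q = 0.0138). That spleen value was 0.08 within hashtags 5-8 and lost its call without spleen hashtags 1 (0.79) or 3 (0.77). Neutrophil markers summed to 266 to 1018 CPM in spleen monocytes and 229 to 324 CPM in marrow monocytes, and their part in the result was not tested. The 70 tumor monocytes, with 1 hashtag sum and no test, held 1725 CPM of Ifitm1, 1708 of Ifitm2 and 1858 of Ifitm3, beside 2212 CPM of Ifitm1 over all tumor mature neutrophils. Neutrophil markers summed to 6580.4 CPM in these cells, of which Il1b gave 5768 CPM, macrophage markers to 5132 CPM and monocyte markers to 3695 CPM. Their median CD115 antibody count was 0, against 17.5 in blood, 19.5 in spleen and 18 in marrow monocytes, and that of Ly6C was 248.5. They are called tumor monocytes for their rule alone.

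Kit-positive cells were a mixture. In marrow 272 of 593 held Gata1 or Klf1, genes of red cell and platelet progenitors, 100 had at least 0.5% of their UMIs in Mpo, Elane and Prtn3, genes of granulocyte progenitors, and 221 were the rest. Ifitm1 averaged 333 ± 136 CPM in the first (n = 8), 87.0 ± 64.2 in the granulocyte progenitors (n = 6) and 459 ± 157 in the rest (n = 8). Ifitm3 averaged 188 ± 59.9, 134 ± 96.2 and 394 ± 129 CPM in the same 3 parts, and Ifitm2 593 ± 43.9, 538 ± 47.0 and 529 ± 92.7 CPM. Ifitm1 was thus already low in the Kit-positive cells with granulocyte RNA, at 18.3 to 181 CPM, against 282 to 668 CPM in the rest. Sums of at least 5 cells were used here. Between spleen and marrow Kit-positive cells, which hold different cells by their markers, Ifitm1 differed by -0.85 ± 0.24 (q = 0.00610), Ifitm2 by -0.45 ± 0.09 (q = 0.000234) and Ifitm3 by 0.09 ± 0.22 (q = 0.793), with 41.8% of genes called. The Ifitm1 value was -0.42 and not called within hashtags 5-8.

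The hashtag sets separated Ifitm3 in every class and tissue that could be compared. In blood mature neutrophils Ifitm3 stood at 1124, 923, 1091 and 1025 CPM in hashtags 1-4 and at 549, 468, 439 and 478 CPM in hashtags 5-8. In spleen mature neutrophils the values were 1065.5, 991, 937 and 885 CPM in hashtags 1-4 and 432, 462, 410.2 and 401 CPM in hashtags 5-8. The sets did not overlap in either tissue. In marrow mature neutrophils hashtags 1-4 held 1013, 1083, 1176 and 999.997 CPM and hashtags 5-8 held 708, 573, 674 and 594 CPM. The log2 differences of 1-4 over 5-8 were 1.10 ± 0.09 in blood (q = 2.86e-11), 1.19 ± 0.09 in spleen (q = 1.61e-11) and 0.76 ± 0.09 in marrow (q = 6.78e-07). Only 2.63%, 2.47% and 1.25% of genes were called in these contrasts.

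The same held in immature neutrophils, monocytes and Kit-positive cells. Marrow immature neutrophils held 899, 750.0, 923 and 778 CPM in hashtags 1-4 and 642, 563, 615 and 521 CPM in hashtags 5-8, a difference of 0.52 ± 0.09 (q = 0.00282; 0.353% of genes called) that was 0.44 and not called with TMM factors (q = 0.0557). Blood monocytes held 6118, 5812, 5327 and 6011 CPM in hashtags 1-4 and 3192, 3013, 3300.2 and 2756 CPM in hashtags 5-8 (0.92 ± 0.08, q = 1.21e-09; 3.77% called). Spleen monocytes averaged 3937 ± 538 CPM in hashtags 1-4 and 2488 ± 158 in hashtags 5-8 (0.66 ± 0.08, q = 1.33e-06; 4.4% called), and marrow monocytes 2290.0 ± 298 and 1185 ± 30.5 CPM (0.95 ± 0.08, q = 1.18e-09; 1.66% called). Kit-positive cells averaged 321 ± 47.9 CPM in hashtags 1-4 and 164 ± 30.8 in hashtags 5-8 in spleen (0.96 ± 0.15, q = 0.00236; 0.687% called), and 299.9 ± 67.9 and 164 ± 17.8 CPM in marrow (0.87 ± 0.16, q = 0.0149; 0.235% called). In all 9 of these groups every sum of hashtags 1-4 exceeded every sum of hashtags 5-8. The share of all genes whose sums separate the sets in this way is not given, here or for Ifitm2 below. The marrow Kit-positive call was lost without any 1 of marrow hashtags 1, 3, 6, 7 or 8, with values between 0.75 and 0.98.

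Ifitm2 went the other way in mature neutrophils and Ifitm1 did not separate the sets there. Ifitm2 averaged 2475 ± 162 CPM in hashtags 1-4 and 3055 ± 295 in hashtags 5-8 in blood, 2433 ± 147 and 2975 ± 238 in spleen, and 1340.3 ± 99.8 and 1732 ± 133 in marrow (SD, n = 4 each). The sets did not overlap, and the differences were -0.30 ± 0.07 (q = 0.0148), -0.29 ± 0.07 (q = 0.0285) and -0.36 ± 0.08 (q = 0.00720). The blood call was lost without hashtags 4 or 5, the spleen call without hashtags 2, 4, 5 or 8, and the marrow call under stricter class thresholds, while all these values stayed below zero. In the other 6 groups Ifitm2 was not called and its sets overlapped, with differences from -0.21 to 0.06. Ifitm1 averaged 1485 ± 329 and 1752 ± 537 CPM in the 2 sets of blood mature neutrophils, with overlapping values (-0.24 ± 0.21, q = 0.709). Its 1 call was in spleen monocytes, at 69.7 ± 42.2 CPM in hashtags 1-4 and 21.4 ± 8.24 in hashtags 5-8 (1.61 ± 0.39, q = 0.0118), where the sets overlapped. That call was lost without spleen hashtags 1 (1.33) or 3 (1.37) and was 0.16 under stricter class thresholds. Neutrophil markers summed to 279 to 1018 CPM in hashtags 1-4 and 266 to 523 CPM in hashtags 5-8 of these monocytes, and their part in the result was not tested.

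**Figure D3:**
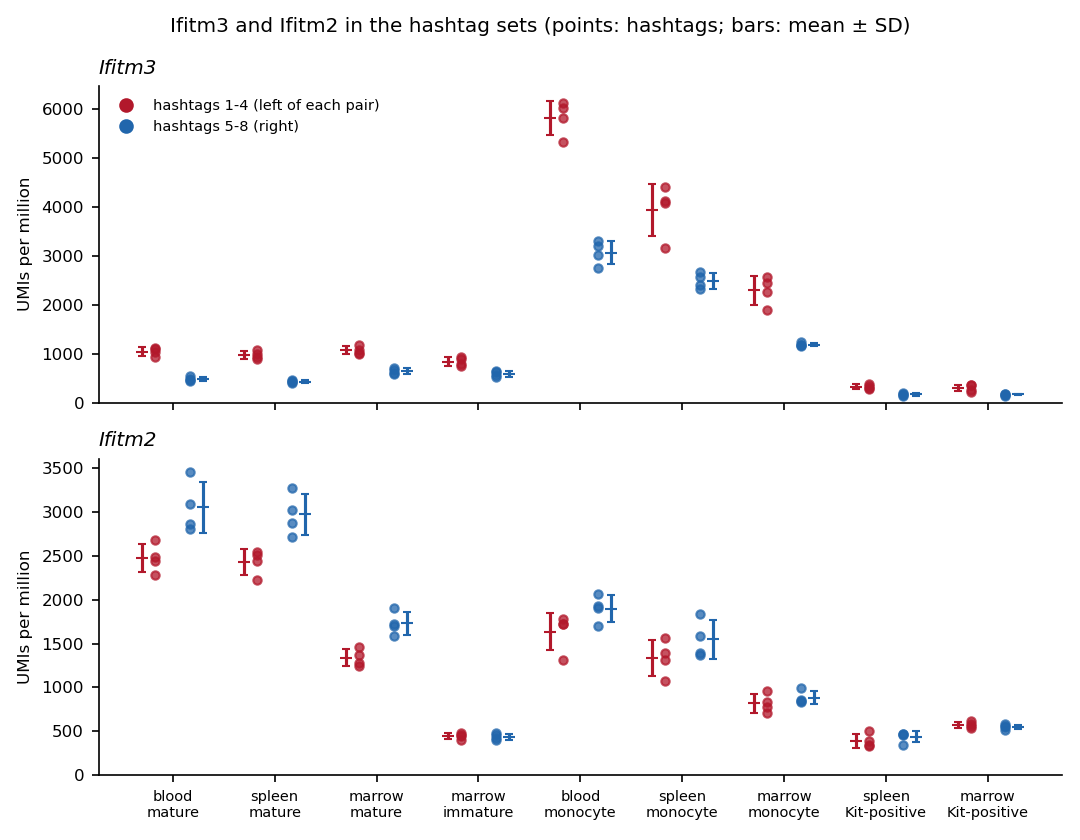
Ifitm3 (top) and Ifitm2 (bottom) levels (CPM) in the 9 class and tissue groups compared, with hashtags 1-4 (red) left of hashtags 5-8 (blue). Points are single hashtags and bars the mean ± SD; red lies above blue for Ifitm3 in each group, as in blood mature neutrophils with 923 to 1124 against 439 to 549 CPM, and below blue for Ifitm2 in mature neutrophils.

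Genes of the interferon response differed between the same sets. The list holds 30 genes, of which 28 were in the table (Mx1 and Mx2 were not). In hashtags 1-4 over 5-8, 27 of 27 measured members rose in blood mature neutrophils, 24 of 27 in spleen and 25 of 27 in marrow. Of all genes tested, 2.18%, 2.03% and 1.07% rose. The median log2 differences of the list were 3.79, 4.89 and 4.00, beside 0.12, 0.11 and 0.11 for all genes. Members with no UMI in hashtags 5-8 numbered 1, 2 and 6, and with those at a bound of 3 counts the medians were 3.79, 4.83 and 3.82. Rtp4, an interferon-induced chaperone gene, stood at 215 to 278 CPM in hashtags 1-4 and 1.67 to 5.70 in hashtags 5-8 of blood mature neutrophils. Ifi27l2a stood at 1023 to 1891 CPM in hashtags 1-4 and 21.8 to 32.1 in hashtags 5-8. Their log2 differences were 5.66 ± 0.18 and 5.66 ± 0.24. In marrow immature neutrophils 6 of 12 rose, beside 0.265% of all genes, with a median of 0.97.

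In monocytes, 25 of 25 measured members rose in blood, 25 of 25 in spleen and 24 of 25 in marrow, beside 2.29%, 3.14% and 1.59% of all genes. Their medians were 4.71, 4.67 and 4.65, or 4.56, 4.13 and 3.92 with members at zero at their bound. In Kit-positive cells 13 of 23 rose in spleen and 7 of 23 in marrow, beside 0.470% and 0.198% of all genes. No member fell in any of the 9 groups, where 0.0376% (marrow Kit-positive cells) to 1.49% (blood monocytes) of all genes fell. Of the 4 measured interferon receptors, Ifnar1 was lower in hashtags 1-4 in blood mature neutrophils (-1.05 ± 0.12, q = 2.81e-07) and in spleen mature neutrophils (-0.98 ± 0.13, q = 7.53e-06), and no other receptor was called in any of the 9. The genotype behind each set is not given, and since a set is 4 hashtags, every trait its mice share cannot be told apart. The sum of the macrophage markers also differed, at 1264 to 1918 CPM in hashtags 1-4 and 349.8 to 771 CPM in hashtags 5-8 of blood monocytes. Over all blood monocytes Apoe gave 1063 of 1073 CPM of that sum, with C1qa and C1qc at 0.337 CPM each, and its part in the result was not tested.

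**Figure D4:**
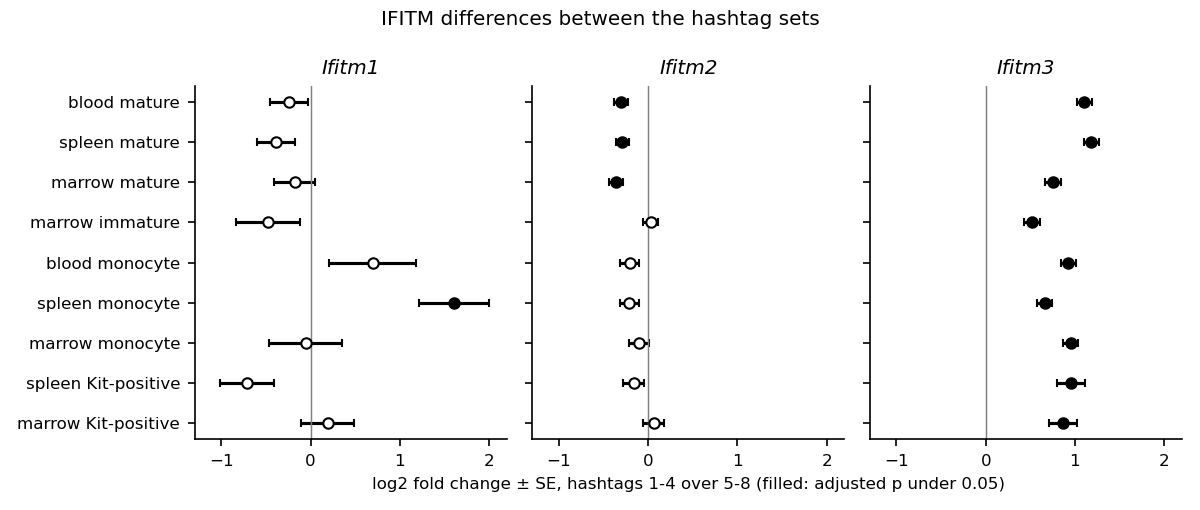
Log2 fold change of hashtags 1-4 over 5-8 with standard error for Ifitm1, Ifitm2 and Ifitm3 in the 9 class and tissue groups compared. Filled points had an adjusted p under 0.05; Ifitm3 lies between 0.52 and 1.19 in all 9 and is filled in each, Ifitm2 is filled below zero in mature neutrophils, and Ifitm1 is filled in spleen monocytes.

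Within 1 hashtag, cells with more interferon-response RNA also held more Ifitm3. Blood mature neutrophils of each hashtag were divided into the 25% of cells with the highest share of UMIs in the list and the other cells. The split uses the list and no Ifitm gene, and the list's own difference is set by it: summed list levels were 11028 to 15907 CPM in the interferon-high cells and 2096 to 3147 in the others of hashtags 1-4, and 1801 to 2247 and 532 to 665 CPM in hashtags 5-8. Ifitm3 averaged 1889 CPM in the interferon-high cells and 769.7 in the others in hashtags 1-4, against 580.0 (interferon-high) and 453 (others) in hashtags 5-8. The log2 ratios were 1.36, 1.10, 1.27 and 1.42 in hashtags 1-4 and 0.40, 0.55, 0.15 and 0.30 in hashtags 5-8. All 8 were above zero, and the sets did not overlap. In hashtags 5-8 the split rests on fewer list UMIs per cell, and the part of this in the smaller ratios there was not tested. The mean ratio was larger in hashtags 1-4 by 0.94 (exact permutation p = 0.0286, two-sided, the smallest 4 against 4 allows; 0.0857 adjusted over the 3 members).

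Fitted over all 8 hashtags, Ifitm3 was higher in interferon-high cells by 1.02 ± 0.28 but not called (q = 0.0932; 1.09% of genes called). With the hashtag as a block, which pairs the cells of each hashtag, it was called at 0.89 ± 0.11 (q = 1.27e-06), and within hashtags 1-4 alone at 1.29 ± 0.08 (q = 5.82e-09). Within hashtags 5-8 it was 0.36 ± 0.11 (q = 0.202). Ifitm1 differed by 0.18 ± 0.16 (q = 0.829; 0.17 ± 0.05 with the block, q = 0.0474) and Ifitm2 by 0.09 ± 0.09 (q = 0.873). Median UMIs per cell were 2692 to 2994 in interferon-high cells and 2856 to 3436.5 in the others.

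**Figure D5:**
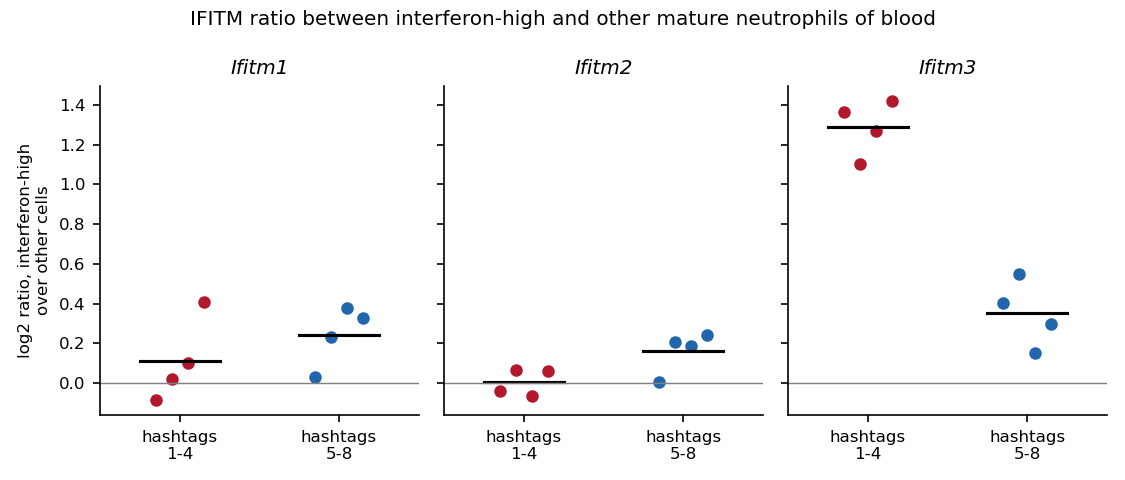
Log2 ratio of Ifitm1, Ifitm2 and Ifitm3 levels in interferon-high over other blood mature neutrophils of the same hashtag, with hashtags 1-4 left of 5-8. Points are single hashtags and lines their mean; Ifitm3 ratios are 1.10 to 1.42 in hashtags 1-4 and 0.15 to 0.55 in hashtags 5-8.

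Part of the interferon list rose with maturation. From immature to mature neutrophils 20 of 27 members rose in marrow and 19 of 27 in spleen, with medians of 2.09 and 3.63, beside -0.13 and 0.18 for all genes, of which 27.0% and 30.6% rose. Between mature neutrophils of blood and marrow 6 of 27 rose and none fell, beside 36.3% of all genes that rose, with a median of 1.01 (0.29 for all genes) and with Trim30a (1.09 ± 0.15) and Ly6e (1.06 ± 0.23) among them. All 4 measured receptor genes rose from immature to mature in marrow, Ifnar1 by 2.22 ± 0.16 (q = 4.24e-16) and Ifngr2 by 1.25 ± 0.11 (q = 8.52e-14).

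Of the other Ifitm genes, Ifitm6 had the opposite course to Ifitm1. It stood at 14.3 ± 3.21 CPM in marrow Kit-positive cells, 2380.1 ± 129.8 in immature and 848 ± 118 in mature marrow neutrophils, and at 105 ± 13.7 in blood and 119 ± 27.9 in spleen mature neutrophils. It rose between Kit-positive and immature cells by 7.36 ± 0.13 (q = 4.72e-38), fell by 1.49 ± 0.09 to mature marrow cells (q = 2.10e-18) and was lower in blood than in marrow mature neutrophils by -3.01 ± 0.12 (q = 7.70e-20). Its mature-over-immature difference was lower in spleen than in marrow by -2.71 ± 0.16 (interaction q = 1.93e-15). In marrow Ifitm6 averaged 1248 CPM at 0.1 to 1% granule RNA and 490 CPM under 0.1%, where most spleen mature cells lay. The part of this in the interaction was not tested. Ifitm6 made up 67.0% ± 3.13 of all Ifitm UMIs in marrow immature neutrophils, and the hashtag sets did not separate it in any of the 9 groups by the test. Ifitm7 was seen in marrow Kit-positive cells (9.25 ± 5.88 CPM) and had 0 UMIs in 5833 blood mature neutrophils, which allows a share of up to 0.0632% of cells (exact 95% interval), a limit on cells with a UMI and not on cells that express the gene. Ifitm5 and Ifitm10 averaged at most 10.5 CPM in any group of 3 or more sums.

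The genes whose mean levels most resembled each member over the 11 class and tissue groups were found by Pearson correlation of log2(CPM + 1) among 10569 genes of at least 10 CPM in some group. For Ifitm1 they were Slc25a33 (r = 0.97), Eps8l1, Tns1, Epb41 and Clip2. For Ifitm2 they were Oasl2 (0.99), an interferon-induced gene, Fxyd5, Nuak2, Rab11fip5 and H2-D1, a class I histocompatibility gene. Between the hashtag sets of marrow mature neutrophils the 2 differed: Oasl2 was higher in hashtags 1-4 by 4.00 ± 0.28 and Ifitm2 was lower. For Ifitm3 they were Apoc2 (0.95), Rap2a, Dhx58, Chmp2a and Soat1. Among the members r was 0.64 between Ifitm1 and Ifitm2, 0.50 between Ifitm2 and Ifitm3, and -0.30 between Ifitm1 and Ifitm3. The groups share libraries and hashtags, so these values describe likeness of pattern only.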

How the data were processed

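Single-cell RNA and surface antibody counts from 4 tissues (4 RNA and 4 antibody libraries, 8 samples) were taken from 1 deposited matrix. The authors deposited raw UMI counts per gene and antibody, made with Cell Ranger 7.0.1 on mm10 per the submitters' processing notes, and further steps are not given in the sources used here. The barcode suffix was read as the tissue (1 blood, 2 bone marrow, 3 spleen, 4 tumor). A hashtag was assigned at 20 or more counts and at least 3 times the next. Cells without a single assigned hashtag entered no sum, and no doublet caller was run.

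Raw UMIs of the cells of a class with the same hashtag and tissue were added up. Library size was the total UMI count of a sum. Genes with 100 or more UMIs over the fitted sums were tested by edgeR 4.0.16 in R 4.3.3 (quasi-likelihood, Benjamini-Hochberg). DESeq2 1.42.0, TMM factors, no filter, thinning, stricter classes or hashtags, the hashtag as a block, library sizes without the class genes, cells of 2 classes kept, and each sum left out were alternatives. The fits restricted to hashtags 1-4 or 5-8 were chosen after seeing the data. Fits were checked on simulated data. Depth is given per library, and count intervals are exact (Clopper-Pearson, 95%).

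The members, gene lists and rules were chosen with earlier results of these data known. Named genes are the members, the other Ifitm genes, the 5 genes most like each member, and up to 4 called list genes per contrast by adjusted p. The hashtag pairs class sums within a tissue, since it marks the same animal in 1 library. Across tissues, same-numbered sums deviated together (every correlation over 0.1) only for mature neutrophils of spleen and marrow (lowest 0.317) and monocytes of blood and marrow (lowest 0.216). Within the 2 hashtag sets the lowest of those correlations were -0.136 and -0.0268.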

Additional observations from a re-analysis of the deposited data

Results flagged for a closer look

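In 87 groups of 4 to 8 sums, 4 held a sum far from the others by Dixon's ratio, where chance gives about 1 in 20. These groups overlap, since all hashtags and the sets 1-4 and 5-8 were each taken as a group. Ifitm2 stood at 1316 CPM in blood monocytes of hashtag 1 (23 cells), against 1728 to 1780 in the other hashtags of 1-4. Ifitm2 stood at 993 CPM in marrow monocytes of hashtag 8, against 838 to 852 in the other hashtags of 5-8. Ifitm2 stood at 345 CPM in spleen Kit-positive cells of hashtag 6, against 461 to 472 in the other hashtags of 5-8. Ifitm1 stood at 77.1 CPM in spleen immature neutrophils of hashtag 5, against 3.45 to 23.3 in the other 4 hashtags.

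The mature-over-immature difference was not the same in spleen and marrow for 2 genes, by the interaction test of edgeR. It was larger in spleen by 1.22 for Ifitm2 (adjusted p = 1.64e-08) and lower in spleen by -2.71 for Ifitm6 (adjusted p = 1.93e-15), on the log2 scale. All 5 spleen immature sums held 20 to 33 cells each. The mature class also spans different granule RNA in the 2 tissues, as given above, and its part in both interactions was not tested.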

How the results depend on the processing

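Over 75 log2 differences and 1703 alternatives, 1577 kept direction and side of the threshold, 54 lost a call, 25 gained one and 47 changed sign, and the cause was not tested. The values listed below for each alternative are those that lost a call, gained one or changed sign. With the hashtag as a replicate block, the differences that gained or lost a call were Ifitm3 in mature neutrophils of blood over marrow (-0.22) and spleen over marrow (-0.35), Ifitm1 in mature neutrophils of tumor over blood (0.52), Ifitm2 in immature neutrophils of spleen over marrow (-0.43), Ifitm3 in marrow mature over immature cells (0.23), and, in interferon-high over other cells, Ifitm1 (0.17) and Ifitm3 (0.89). No other call changed under the block. Between tissues the block pairs sums by hashtag number, which was not shown to mark the same animal. No block could be fitted between the sets within a tissue.

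With TMM factors, values were -0.62 for Ifitm3 in mature spleen over marrow, -0.52 for Ifitm2 and 0.48 for Ifitm3 in tumor over blood, -0.052 for Ifitm2 and 0.44 for Ifitm3 between the sets in immature cells, 0.46 for Ifitm2 in immature over Kit-positive cells, 0.33 for Ifitm3 in marrow monocytes over mature cells, and -0.038 for Ifitm3 in spleen mature over immature cells. With DESeq2 they were -0.67 for Ifitm3 in mature spleen over marrow, -0.046 for Ifitm2 between the sets in immature cells, 0.014 for Ifitm1 between the sets in marrow monocytes, 0.15 for Ifitm2 in immature over Kit-positive cells, and -0.22 for Ifitm3 in spleen mature over immature cells. Without the class genes in the library size they were 0.69 for Ifitm3 in tumor over blood, -0.016 for Ifitm2 between the sets in immature cells, 0.45 for Ifitm2 in immature over Kit-positive cells, and -0.065 and -0.53 for Ifitm3 in mature over immature cells of marrow and spleen. Without the filter, Ifitm1 between the sets in mature spleen (-0.39) and Ifitm3 in interferon-high cells (1.02) were called.

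Within hashtags 1-4, values were 0.14 for Ifitm2 in tumor over blood, -0.28, -0.078 and 0.024 for Ifitm2, Ifitm1 and Ifitm3 in immature spleen over marrow, 0.36 for Ifitm3 in marrow mature over immature cells and 1.29 for Ifitm3 in interferon-high cells. Within hashtags 5-8 they were -0.39 and -0.58 for Ifitm3 in mature blood and spleen over marrow, -0.076 and 0.083 for Ifitm1 in monocytes of blood and spleen over marrow, and -0.42 for Ifitm1 in Kit-positive spleen over marrow.

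Thinned to 1000 UMIs, values were 0.14 for Ifitm2 and 0.38 for Ifitm3 in tumor over blood, -0.26, -0.092 and 0.018 for Ifitm2 between the sets in spleen mature, marrow immature and spleen monocyte cells, -0.58 for Ifitm2 in immature spleen over marrow, 0.64 for Ifitm3 in Kit-positive spleen over marrow, 0.97 for Ifitm3 between the sets in Kit-positive cells of both marrow and spleen, -0.21 for Ifitm2 in immature over Kit-positive cells, and -0.032 for Ifitm3 in spleen mature over immature cells. With cells of 2 classes kept, Ifitm1 was 0.55 in tumor over blood, 1.40 in monocytes of blood over marrow, and 0.86, 1.95 and 1.08 between the sets in immature cells, blood monocytes and spleen monocytes. Under stricter classes, values were 0.54 for Ifitm3 in tumor over blood, -0.22 for Ifitm2 between the sets in marrow mature cells, -0.084 and -0.069 for the Ifitm2 set-by-tissue differences, -0.30 for Ifitm2 in immature spleen over marrow, 0.52, 0.25 and 0.16 for Ifitm1 between the sets in immature cells, marrow monocytes and spleen monocytes, and -0.50 for Ifitm1 in Kit-positive spleen over marrow. Under stricter hashtags they were -0.27 for Ifitm2 between the sets in spleen mature cells, -0.31, -0.68 and 0.12 for Ifitm2, Ifitm1 and Ifitm3 in immature spleen over marrow, 0.62 and 1.19 for Ifitm1 in spleen monocytes over marrow and between the sets, -0.18 for Ifitm3 in spleen mature over immature cells, and 1.76 for the Ifitm1 interaction.

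With single sums left out, ranges were 0.32 to 0.55 (Ifitm1) and 0.51 to 1.12 (Ifitm3) in tumor over blood, -0.34 to -0.24 and -0.33 to -0.24 for Ifitm2 between the sets in mature blood and spleen, -0.23 to 0.18 and -0.37 to 0.013 for the Ifitm1 set-by-tissue differences, -0.47 to -0.33, -0.57 to 1.07 and -0.24 to 0.081 for Ifitm2, Ifitm1 and Ifitm3 in immature spleen over marrow, and -0.018 to 0.068 for Ifitm2 between the sets in immature cells. They were 0.77 to 1.27 for Ifitm1 in monocytes of spleen over marrow, -0.23 to 0.39 and 1.33 to 1.94 for Ifitm1 between the sets in marrow and spleen monocytes, -0.032 to 0.22 for Ifitm3 in Kit-positive spleen over marrow, 0.75 to 0.98 for Ifitm3 between the sets in marrow Kit-positive cells, -0.11 to 0.21 for Ifitm3 in spleen mature over immature cells, and 0.87 to 1.14 for Ifitm3 in interferon-high cells.

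The count of all genes called moved by over 1.5 times without the filter (more in 12 of 25 contrasts), with thinning (fewer in 21), with DESeq2 (more in 3) and in a few contrasts elsewhere. The contrast of tumor and blood monocytes had too few sums to fit, as had tumor over blood with stricter hashtags or hashtags 5-8. Tumor sums of 5 to 17 cells and spleen immature sums limit what these groups can show.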
